A study of Glycine max with 8 samples.

Results

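Chromosome 13 of soybean carried 3722 sites of a WOX9-like protein, 7.31% of the 50913 sites kept in developing seeds. WUSCHEL-related homeobox (WOX) proteins are plant transcription factors that bind DNA through a homeodomain. In Arabidopsis, WOX9 is known for its part in early embryo patterning and in keeping cells of the embryo and the shoot meristem dividing. Sites were measured by chromatin immunoprecipitation followed by sequencing (ChIP-seq), in which an antibody recovers the DNA a protein is cross-linked to and a peak marks a place where that DNA piles up.

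The seeds, from the Williams 82 cultivar of Glycine max, were taken whole at 2 stages. The heart stage, when the cotyledons start to grow out, was sampled as seeds of 1.7 to 2.1 mm, and the younger globular stage, when the embryo is a ball of cells, as seeds of 1.0 to 1.5 mm. All seeds came from greenhouse plants with no treatment beyond formaldehyde cross-linking, and all 4 ChIP libraries (2 per stage) used one polyclonal antibody, raised in rabbit to a peptide from the protein. The 4 input libraries, 2 per stage, were not analysed here as samples. The labels do not say whether the libraries of a stage were made from different plants, so p-values measure only the spread between these libraries, which may be technical. Whole seeds hold seed coat and endosperm beside the embryo.

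A site is here a region made by joining peaks of different libraries where their overlap covered 50% or more of the shorter one. A region was kept when both libraries of at least 1 stage called it. On chromosome 13, 5455 regions were joined and 3722 (68.2%) were kept, against 67.8% over all 20 chromosomes. The other 19 chromosomes held 46911 kept regions and unplaced scaffolds held 280. Near the overlap limit, the same-stage peaks of chromosome 13 just inside it overlapped by 50% and 50.5% and those just outside by 49.6% and 48.8%, and only 29 of 6149 such overlaps lay under 60%. Positions are those of the deposited files, counted from 1. Their genome build is not named, so regions were not assigned to genes and no sequence was read.

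The lists held 60537 and 50579 peaks at the heart stage (replicates 1 and 2) and 46027 and 44581 peaks at the globular stage. The files give no read totals. In the globular lists, where the reads behind a peak can be solved from its fold and p, the median chromosome 13 peak rested on 35 reads at the summit in replicate 1 and on 69 in replicate 2, against medians of 34 to 35 and 65 to 68 on the other chromosomes. The peak names in the list of globular replicate 2 hold the words BR1 and Input, which no label explains, and values without that library are given where they bear on a result.

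Chromosome 13 had the most sites and the highest site density of the 20 chromosomes, in every library. Heart replicates 1 and 2 had 4447 and 3740 peaks there, and globular replicates 1 and 2 had 3357 and 3293. Per Mb these were 97.1 and 81.7 peaks in the heart libraries and 73.3 and 71.9 in the globular libraries. The other 19 chromosomes averaged 62.5 and 52.3 peaks per Mb in the heart libraries and 47.6 and 46.1 in the globular libraries, and the densest of them reached 83.5 and 69.9 (heart) and 66.5 and 61.9 (globular). No other chromosome reached the density of chromosome 13 in any of the 4 lists.

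**Figure D1:**
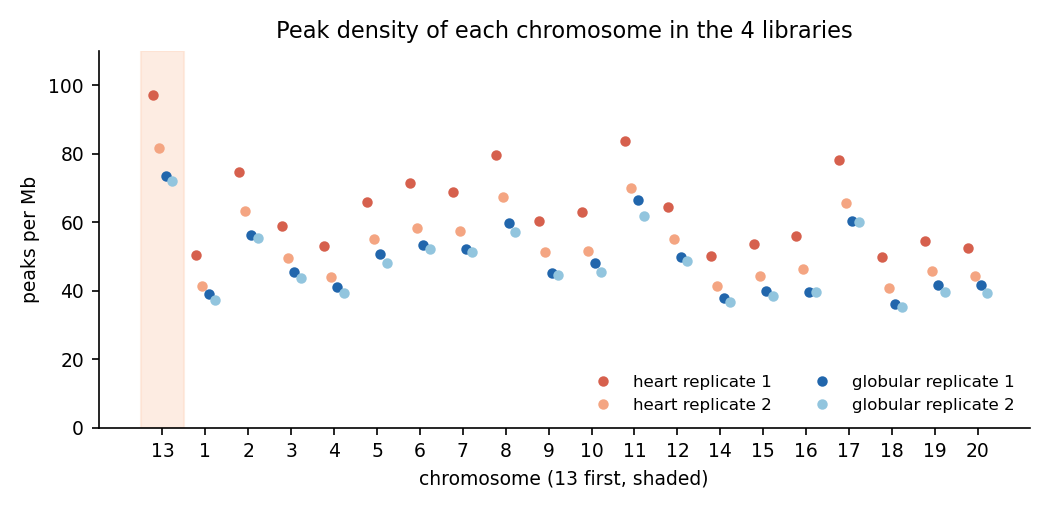
Peaks per Mb (vertical axis) on each chromosome (horizontal axis, chromosome 13 first and shaded), one point per library. Chromosome 13 lies above every other chromosome in each library, at 97.1 and 81.7 peaks per Mb in the heart libraries and 73.3 and 71.9 in the globular libraries.

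Over the 4 libraries chromosome 13 averaged 81.0 ± 11.6 peaks per Mb and the other chromosomes 52.1 ± 7.43 (SD, n = 4 libraries each). The difference was 28.9 ± 4.17 peaks per Mb, higher on chromosome 13 in 4 of 4 libraries (exact sign-flip permutation test over libraries, two-sided, p = 0.125). That is the smallest p that 4 libraries allow, so no comparison of this kind could reach 0.05. In joined regions the density was 81.3 per Mb on chromosome 13, against 52.7 ± 9.50 (SD over 19 chromosomes, range 41.1 to 71.1), a ratio of 1.54. Chromosome 13 was not long: at 45.8 Mb up to the last base with a peak it was number 13 of 20 by extent, and the others averaged 47.5 Mb.

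The excess was close in size at the 2 stages. The density of chromosome 13 was 1.55 and 1.56 times the mean of the others in heart replicates 1 and 2, and 1.54 and 1.56 times in globular replicates 1 and 2. On the log2 scale the heart libraries averaged 0.64 ± 0.0065 and the globular libraries 0.63 ± 0.014 (SD, n = 2 each), a difference of 0.0069 (exact permutation test of the stage labels, two-sided, p = 0.667, where 0.333 is the smallest possible). The 2 stages overlapped in this ratio, and without globular replicate 1 the difference was -0.0031. The local background was solved for the globular lists only. In replicate 1 its median over chromosome 13 peaks was 5.18 reads, inside the chromosome medians of 5.03 to 5.35 elsewhere. In replicate 2 it was 17.7768 reads, level with the highest of the other chromosomes (17.1158 to 17.7767). Whether the background bears on the density was not tested. The density was not compared with gene density or with input reads.

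The sites of chromosome 13 were spread unlike those of any other chromosome: its beginning was nearly empty and its middle was full. With each chromosome cut into 10 equal parts from its start, part 1 of chromosome 13 held 42 regions, against 279 to 721 in part 1 of the others, and part 2 held 8, against 83 to 725. Parts 3 and 4 lay inside the range of the others. Part 3 held 25.1 regions per Mb (number 10 of 20, others: highest 130) and part 4 held 60.7 (number 4 of 20, others: highest 92.8). From part 5 to part 9 chromosome 13 was the densest of the 20. Its part 5 held 107 regions per Mb (others: median 10.5, highest 40.2) and its part 6 held 97.6 (others: median 6.68, highest 14.7). Part 7 held 97.2 per Mb (others: highest 37.0) and part 8 held 126 (others: highest 101). Part 9, with 711 regions or 155 per Mb, was its fullest, against at most 130 per Mb in part 9 elsewhere. In part 10, at 133 per Mb, 3 other chromosomes were denser.

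**Figure D2:**
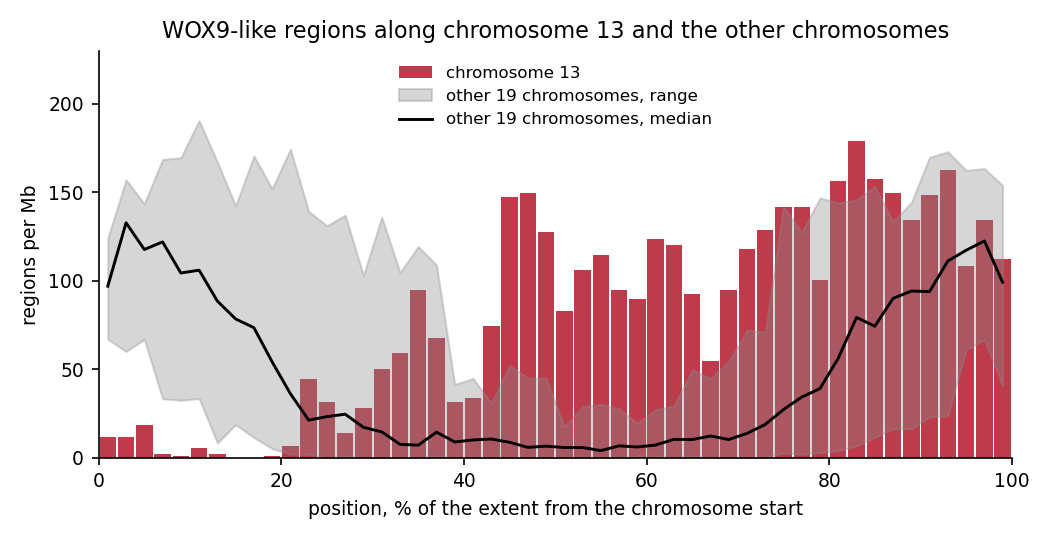
Regions per Mb (vertical axis) in 50 equal bins along a chromosome (horizontal axis, percent of the extent from the chromosome start). Bars show chromosome 13, the line the median and the band the range of the other 19 chromosomes. The bars stay near the axis in the first 20%, lie within the band up to about 41%, and rise above it from about 43% to 73%.

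The ends of chromosome 13 differed from each other more than those of any other chromosome. The first 20% of its extent held 50 regions and the last 20% held 1321, a ratio of 26.4 between its fuller and its sparser end. On the other chromosomes this ratio was 1.04 to 3.84, and the sparser end held 338 to 1073 regions. The middle 60% of chromosome 13 held 2351 regions, 63.2% of its total, against 26.4% ± 7.36 on the others (SD over 19 chromosomes, highest 38.9%).

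Each library showed this pattern. The share of chromosome 13 peaks in the outer 20% at either end was 36.1% and 36.5% in the heart libraries and 35.8% and 36.3% in the globular libraries. The mean of the other chromosomes was 73.3% and 73.5% in the heart libraries and 73.2% and 73.6% in the globular libraries, and the lowest of them in any library had 59.7%. The difference was -37.3 ± 0.144 points (SD, n = 4), lower on chromosome 13 in 4 of 4 libraries (exact sign-flip permutation test, two-sided, p = 0.125, the smallest possible).

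In the middle 60%, the libraries had 103 and 86.5 peaks per Mb (heart) and 78.5 and 76.3 (globular) on chromosome 13, against means of 28.7 and 23.8 (heart) and 21.9 and 20.9 (globular) on the other chromosomes. The highest middle of another chromosome was 52.7 and 44.0 in the heart libraries and 41.8 and 39.0 in the globular libraries. The difference was 62.4 ± 8.91 peaks per Mb (SD, n = 4), with chromosome 13 higher in 4 of 4 libraries (exact sign-flip permutation test, two-sided, p = 0.125). At the ends the density of chromosome 13 went both ways. Its last 20% held 144 regions per Mb, more than any other chromosome (mean 94.5 ± 26.2, highest 129), and its first 20% held 5.46 per Mb, less than any other (mean 97.1 ± 32.4, lowest 39.5, SD over 19 chromosomes).

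In windows of 1 Mb, chromosome 13 held many well-filled windows and a smaller share of poor ones than most other chromosomes. The median of its 45 full windows was 83 regions, against 28 over the 891 full windows of the other chromosomes, whose own medians ranged from 14.5 to 79. Windows with at least 100 regions made up 42.2% of chromosome 13 (19 of 45) and 13.5% to 36.6% of each other chromosome. Windows with fewer than 10 regions made up 15.6% (7 of 45), against a mean of 30.1% ± 6.88 on the others (SD over 19 chromosomes, range 14.7% to 44.7%). Empty windows were not rarer, at 4.44% (2 of 45), against 3.37% (30 of 891) on the others. Its fullest window was not out of reach of the others: it held 179 regions, and 2 other chromosomes had a fuller one, up to 188.

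**Figure D3:**
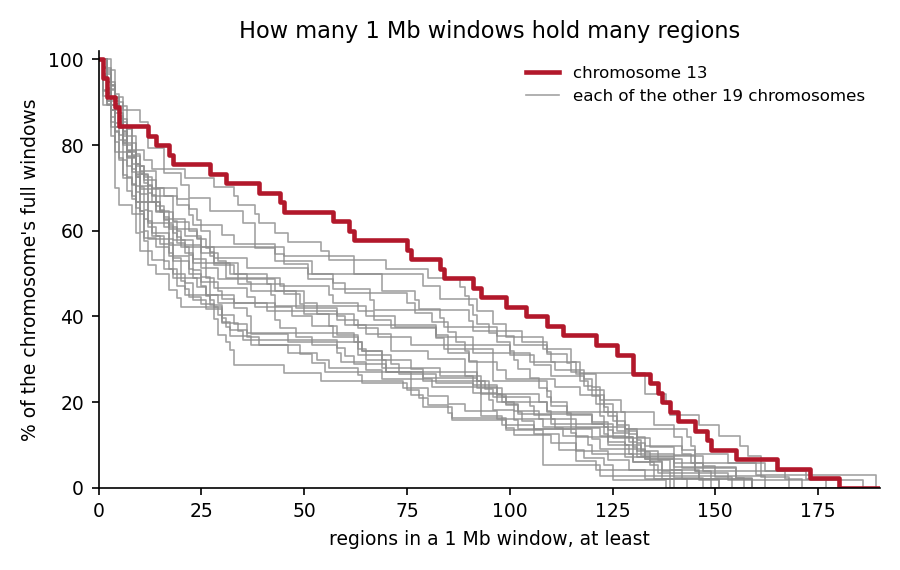
Percent of a chromosome's full 1 Mb windows (vertical axis) that hold at least the number of regions on the horizontal axis; the thick line is chromosome 13 and each thin line another chromosome. Chromosome 13 has 64.4% of its windows at 50 regions or more and 42.2% at 100 or more, above each other chromosome, while at the far right other chromosomes reach as high.

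The richest windows lay near the end of the chromosome. The window from 38 to 39 Mb held 179 regions, with 204 and 184 peaks in the heart libraries and 164 and 171 in the globular libraries. It was followed by the windows from 37 to 38 Mb (172 regions), 42 to 43 Mb (164), 39 to 40 Mb (154) and 34 to 35 Mb (148). Heart replicate 1 had 173 to 207 peaks in each of these 5 windows and globular replicate 1 had 125 to 164. The 31 windows from 14 to 45 Mb all lay above 29 regions, the median of all full windows, and held 3469 of the sites. On the other chromosomes the longest such run was 10 to 20 windows.

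The poorest windows all lay within the first 9 Mb. Those from 3 to 4 Mb and from 7 to 8 Mb held no kept region, those from 6 to 7 Mb and from 8 to 9 Mb held 1 each, and that from 5 to 6 Mb held 3. In the window from 3 to 4 Mb, heart replicate 1 had 1 peak and the other lists none, and in that from 7 to 8 Mb, globular replicate 2 had 1 peak and the others none. All 10 windows from 0 to 10 Mb lay below the median, with 54 regions in all. A stretch of this kind was shorter than on most chromosomes, where the longest run below the median was 8 to 31 windows (median 20). What set chromosome 13 apart was that the run reached to its start.

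The 3 widest gaps between neighbouring sites were also there. No site was kept between 6013153 and 8616019 (2603 kb), between 2886635 and 4160630 (1274 kb) or between 8616770 and 9611991 (995 kb). The site between the first and the third of these gaps, from 8616019 to 8616770, was called in all 4 libraries with a fold enrichment of 16.1 and 12.2 in the heart libraries and 11.4 and 8.05 in the globular libraries. The fold is the authors' value for the pile of reads at a peak's summit relative to the background expected there, and is used here only within a list. This lone site was within the first 5.61% and 9.46% of the heart lists and 15.0% and 10.2% of the globular lists. Of 42 gaps over 100 kb on chromosome 13, 38 began before 20 Mb.

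Taken over the whole chromosome, sparse beginning included, most neighbouring sites stood close together. The median gap was 3.52 kb on chromosome 13, against 4.002 ± 0.407 kb on the others (SD over 19 chromosomes, lowest 3.37). By this median chromosome 13 was number 17 of 20 from the longest. Of its gaps, 59.3% were under 5 kb, against 54.99% ± 2.43 (highest 59.2%). Gaps over 100 kb made up 1.13%, against 3.03% ± 1.10 (lowest 1.34%). By 10 Mb steps the density was 5.40, 47.6, 114 and 128 regions per Mb, and 134 from 40 Mb to the end. The 4 libraries traced this course alike: the step from 30 to 40 Mb, for example, held 35.1% and 35.3% of the chromosome 13 peaks of the heart libraries and 33.8% and 35.04% of those of the globular libraries. The first 10 Mb held 1.44% and 1.42% of the peaks in the heart libraries and 1.61% and 1.67% in the globular libraries.

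The stages called the sites of chromosome 13 in nearly the proportions found on the other chromosomes. Of the 3722 regions, 2000 (53.7%) were called in all 4 libraries, against 53.5% over the 20 chromosomes. Both heart libraries and 1 globular library called 655 (17.6%, against 17.1%), and both globular libraries and 1 heart library called 163 (4.38%, against 4.38%). Heart only sites, called in both heart libraries and neither globular one, numbered 659, or 17.7% (95% exact binomial interval 16.5% to 18.97%, counting error only), against 18.2% over the 20 chromosomes. Globular only sites numbered 245, or 6.58% (5.81% to 7.43%), against 6.81%. Where a library has no call, binding below its calling threshold remains possible. On the other chromosomes the heart only share ranged from 16.2% to 20.1% and the globular only share from 5.75% to 7.85%, so chromosome 13 lay inside the spread of the others in each class. The heart only share of chromosome 13 differed from the mean of the others by -0.543 points with all 4 libraries and by 0.068 points without globular replicate 2. The share called in every library differed by 0.254 points, and without heart replicate 1 by -0.0226.

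**Figure D4:**
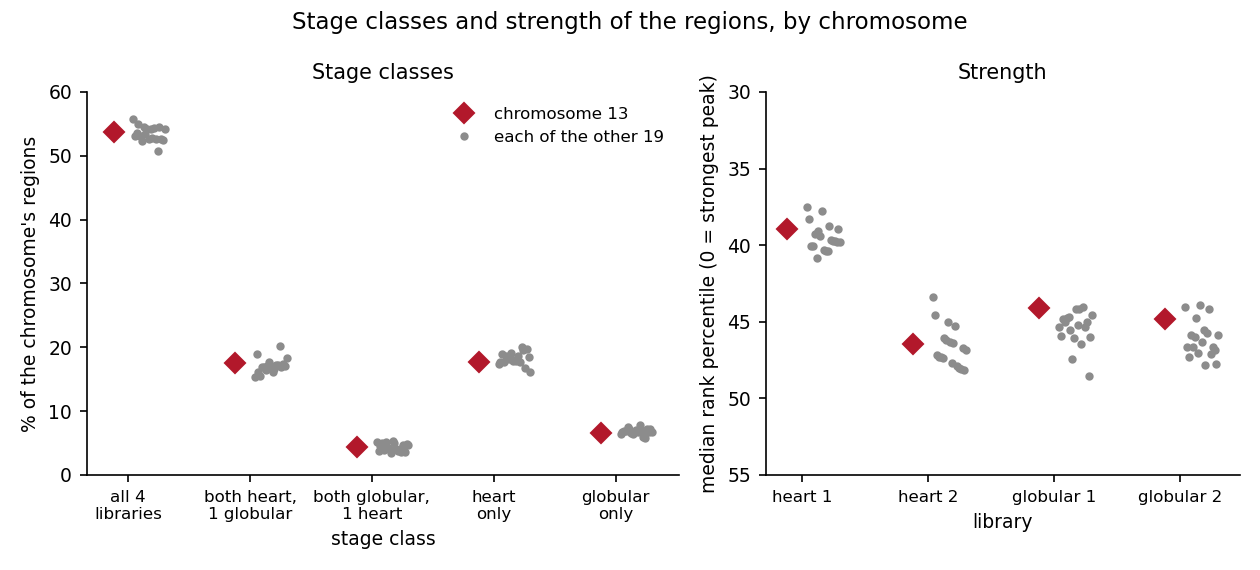
Left, percent of a chromosome's regions (vertical axis) in each stage class (horizontal axis); right, median rank percentile of its regions (vertical axis, 0 is the strongest peak, stronger upward) in each library (horizontal axis). The diamond is chromosome 13 and each dot another chromosome; in the left panel the diamond lies within the dots for each class, with 53.7% of its regions called in all 4 libraries.

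Along the chromosome the share called in all 4 libraries was lower in each successive step of 10 Mb. It was 61.1% in the first 10 Mb (95% exact binomial interval 46.9% to 74.1%, 54 sites), then 56.1%, 54.6% and 53.3%, and 51.1% from 40 Mb to the end (47.5% to 54.7%, 773 sites). The intervals of neighbouring steps overlapped, and no test of this order was made. In the 34 full windows with at least 20 regions, heart only sites made up 10.0% to 26.8% (median 17.5%) and globular only sites 0% to 10.9% (median 6.67%). The window from 30 to 31 Mb had the highest heart only share, 15 of 56 sites, or 26.8% (95% exact interval 15.8% to 40.3%). It was followed by the windows from 15 to 16 Mb (26.7%) and from 31 to 32 Mb (24.4%). The lowest heart only shares, 10.0%, 10.1% and 11.03%, lay from 11 to 12 Mb, 25 to 26 Mb and 27 to 28 Mb. The windows from 25 to 26 Mb and from 27 to 28 Mb also had high globular only shares, 10.9% and 9.56%, with 10.0% from 20 to 21 Mb. No globular only site lay from 13 to 14 Mb, 14 to 15 Mb or 18 to 19 Mb, among 26, 61 and 38 sites. The interval of the share left out the value of the whole chromosome in 2 of 34 windows for heart only sites and in 1 of 34 for globular only sites.

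Sites of chromosome 13 were also found again between the libraries of a stage about as often as elsewhere. Of its peaks, 76.4% (heart replicate 1) and 94.3% (heart replicate 2) were shared with the other heart library, against means of 76.3% and 94.4% on the other chromosomes. At the globular stage 77.7% and 77.0% were shared, against 76.9% and 77.2%. In its 1705 regions with 1 peak from each library, the median distance between summits was 26 bp in the heart pair and 37 bp in the globular pair, against 24 to 28 bp and 35 to 41 bp on the other chromosomes.

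In strength the chromosome 13 sites were close to the rest. Strength is given as the rank percentile of a site's best peak within its list by p, where 0 is the strongest. The medians on chromosome 13 were 38.9 and 46.5 in heart replicates 1 and 2 and 44.1 and 44.8 in globular replicates 1 and 2. The means of the other chromosomes' medians were 39.5 and 46.6 in the heart lists and 45.4 and 46.1 in the globular lists. The difference was -0.827 ± 0.564 percentile points (SD, n = 4), stronger on chromosome 13 in 4 of 4 libraries (exact sign-flip permutation test, two-sided, p = 0.125). It stayed within the spread of the chromosomes, since 4, 8, 1 and 4 of the other 19 had a stronger median in heart replicates 1 and 2 and globular replicates 1 and 2. The 2 globular libraries gave differences of -1.30 each, and the heart libraries gave -0.543 and -0.17.

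The strongest peaks made up a slightly larger share on chromosome 13 in each of the 4 lists. Of the chromosome 13 peaks, 10.95% and 11.3% were in the top 10% of the heart lists and 11.1% and 10.5% in that of the globular lists, against 9.92% and 9.89% (heart) and 9.91% and 9.94% (globular) of the peaks on the other chromosomes. Regions in the top 10% of all 4 lists numbered 135 on chromosome 13, the highest number of any chromosome (others: 56 to 105). They made up 3.63% of its regions, against 3.36% over the 20 chromosomes, and 4 others had a higher share. Of these 135, 2 lay in the first 10 Mb, 16 from 10 to 20 Mb, 42 from 20 to 30 Mb, 54 from 30 to 40 Mb and 21 beyond. Regions in the top 1% of all 4 lists numbered 12, against 1 to 9 on each of the others. As a share of regions chromosome 13 did not lead here. Chromosome 15 had 9 of 2304 and chromosome 1 had 8 of 2370, both higher shares than 12 of 3722.

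By stage class, strength followed the rest of the genome. Regions of all 4 libraries had median percentiles of 22.5 and 27.3 in the heart lists and 46.1 and 31.0 in the globular lists, each inside the range of the other chromosomes. Heart only sites were among the weaker heart peaks, at 64.8 and 75.9, against means of 63.5 and 75.4 elsewhere. Globular only sites ranked high in globular replicate 1, at 18.3, and low in globular replicate 2, at 70.7, against 19.4 and 71.1 elsewhere.

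The strongest region of chromosome 13, by the weakest of its 4 ranks, lay from 14062569 to 14063860. Its fold was 40.3 and 37.9 in heart replicates 1 and 2 and 40.2 and 29.4 in globular replicates 1 and 2, and the 4 summits fell within 22 bp. It stood 0.785 kb from its left and 0.17 kb from its right neighbour. The second, from 23039803 to 23041436, had a fold of 36.1 and 34.0 in the heart libraries and 33.2 and 22.8 in the globular libraries. They lay in parts 4 and 6 of the 10 equal parts, where the other chromosomes had medians of 11.8 and 6.68 regions per Mb, though the strongest 10 were not confined to it.

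**Figure D5:**
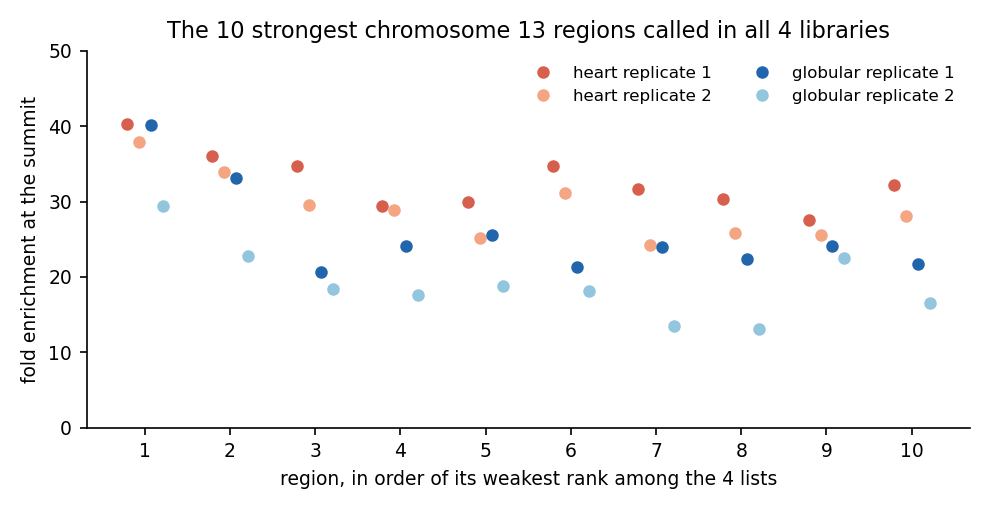
Fold enrichment at the summit (vertical axis) of the 10 strongest chromosome 13 regions called in all 4 libraries (horizontal axis, in order), one point per library. Folds of different libraries rest on different backgrounds and are not compared in level; each region is within the top 0.747% of every list.

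The third, from 39894037 to 39896188, had a fold of 34.7 and 29.5 in the heart libraries and 20.7 and 18.4 in the globular libraries. Number 4, from 44820349 to 44821933, had 29.4 and 28.8 at the heart stage and 24.1 and 17.7 at the globular stage, and its summits spread over 251 bp, the widest spread of the 10. Number 5, from 31103889 to 31106004, had 29.9 and 25.2 at the heart stage and 25.6 and 18.8 at the globular stage, and joined 9 peaks. The remaining 5 began at 42432208, 37233915, 42032834, 16119344 and 33841870, with folds of 27.6 to 34.7 in heart replicate 1 and 21.4 to 24.2 in globular replicate 1. Each of the 10 was within the top 0.747% of every list, and 3 of them lay before 30 Mb.

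Heart only sites of chromosome 13 were weaker than these. The highest-ranked lay from 32765463 to 32766554, with a fold of 12.04 in heart replicate 1 and 12.4 in replicate 2, and summits 4 bp apart. Next came the regions from 43143835 to 43144291 (13.4 and 9.75), from 30934482 to 30934986 (10.1 and 8.00), from 31515260 to 31516239 (11.3 and 7.74) and from 12236647 to 12237428 (11.5 and 7.55). The highest-ranked stood 40.3 kb from its left neighbour and the one starting at 12236647 stood 266 kb from its own, while those starting at 30934482 and 31515260 had a neighbour within 1 kb. None of the 5 touched a globular peak.

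Globular only sites ranked unevenly between the globular libraries. The highest-ranked by the weaker of its 2 ranks lay from 22579632 to 22581106, with a fold of 9.31 in globular replicate 1 and 7.07 in replicate 2. Next were the regions from 34666779 to 34667263 (12.9 and 4.79), from 909567 to 910229 (7.41 and 6.94), from 41148070 to 41148860 (17.8 and 4.37) and from 43307407 to 43307866 (13.2 and 4.88). The one starting at 41148070 was in the top 1.54% of the list of replicate 1 and only in the top 28.3% of that of replicate 2. The site starting at 909567 lay in the sparse beginning of the chromosome, where 4 of 54 sites were globular only. None of the 5 touched a heart peak.

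The peaks of chromosome 13 were slightly wider than those elsewhere. In each region's best peak, the median width was 553 and 476 bp in the heart libraries and 472 and 494 bp in the globular libraries, against means of 541 and 466 bp (heart) and 467 and 485 bp (globular) over the other chromosomes. The difference was 8.91 ± 2.86 bp (SD, n = 4), wider on chromosome 13 in 4 of 4 libraries (exact sign-flip permutation test, two-sided, p = 0.125). In heart replicate 1 no other chromosome had a wider median, and in the other 3 lists 1 to 3 did. Regions of all 4 libraries had a median width of 789.5 bp, against 756 bp on average elsewhere (729.5 to 782). Heart only regions, at 426 bp, were as wide as the mean of 426 bp elsewhere, and globular only regions had 494 bp, against 501 bp.

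Very wide regions were no more common than elsewhere: 71 regions of chromosome 13 (1.91%) were over 2 kb, against 1.94% on the others. The widest, 5218 bp from 34672958 to 34678175, had a single heart replicate 1 peak of that full width, while the best peaks of the other libraries there were 1479 bp (heart replicate 2), 544 bp (globular replicate 1) and 1216 bp (globular replicate 2). The next lay from 886991 to 891551 (4561 bp), 34741358 to 34745617 (4260 bp), 44822139 to 44826384 (4246 bp) and 42032834 to 42036981 (4148 bp), all called in all 4 libraries. The last of these was also among the 10 strongest. The second lay within the first 1 Mb, where only 11 regions were kept in all.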

How the data were processed

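The authors deposited 1 peak list for each of the 4 ChIP libraries, out of 8 libraries. The submitters' processing notes name MACS2 with Bowtie 0.12.7 and SAMtools 0.1.18. The sources used here give no genome build, control, handling of duplicates or calling limit. The deposited −log10 q begin at 2.00 to 2.04. In the deposited lists the fold is a ratio at the summit, the p and q columns are −log10 values and the score is a whole number made from q.

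Peaks were joined and kept as the report states, placed by region midpoint, and compared over 20 chromosomes, extents running to the last base with a peak. Rank percentiles are by p within a list. Regions over 2 kb, gaps and 10 Mb steps describe the members. Reads at the summit in the globular lists were solved from fold and p under MACS2's Poisson formula (100% whole within 0.002 in −log10 p, peaks under 250 only). Differences between chromosome 13 and the mean of the others were tested over 4 libraries by exact sign flips. Named regions are the 10 strongest of all 4 libraries, the 5 strongest heart only, the 5 strongest globular only and the 5 widest. Named windows are the 5 richest, the 5 poorest and 3 extreme windows per stage class, beside 3 extreme gaps. The members and the measures were chosen with earlier results of these data known. On simulated lists with 3326 kept regions on chromosome 13, 3326 were recovered. The simulated regions stood apart and had at most 1 peak per library. Overlapping neighbours and regions with 2 or more peaks of 1 library (342 of the real ones) were therefore not tried. Replicate numbers are not tied across stages by the labels. Python 3.11.15, numpy 2.4.6, scipy 1.17.1, pandas 2.3.3 and matplotlib 3.10.9 were used.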

Additional observations from a re-analysis of the deposited data

How the results depend on the processing

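Of 88 values under 13 other settings, 82 kept their sign and stayed within a set limit, and 4 changed sign. For counts, the region density ratio and class shares the limit was one of size. For the tested differences it was only the side of 0.05 on which the exact test fell, so their size could change freely. No exact test with 4 libraries or fewer could fall below 0.05, so these differences met that limit in advance. They could fail only by a change of sign. Chromosome 13 was the densest chromosome in each of the 9 settings in which region density was recomputed. Its number of regions was 3309 with equal numbers of peaks per list, 3495 with −log10 q of at least 5, and 3965 to 4663 without single libraries. Its density was 1.53 to 1.56 times the mean of the others without single libraries and 1.54 to 1.55 times otherwise. The outer share stayed 37.2 to 37.3 points below the others without single libraries, and the difference was -25.4 points with the outer 10% at either end. The strength difference was -0.546 to -0.913 percentile points without single libraries and -0.579 to -1.20 otherwise. The width difference was 5.91 to 8.96 bp without single libraries and 8.86 to 12.8 bp otherwise. The heart only share differed from the others by -0.666 to 0.068 points without single libraries, positive without globular replicate 2, and the share called in every library used by -0.0226 to 0.789, negative without heart replicate 1. The globular only share differed from the others by -0.172 to -1.06 points without single libraries, against -0.233 with all 4. It was lowest without globular replicate 2 and was -0.209 points without globular replicate 1. In both settings 1 library set the class. The stage difference in log2 density ratio was -0.0107 with −log10 q of at least 5 and -0.0031 to 0.017 without single libraries, lowest without globular replicate 1, so it has no stable sign; the cause was not tested. With a replicate block it was 0.0069 (exact sign-flip test over 2 pairs, p = 0.50). The replicate differences in log2 fold had a correlation of -0.04 between stages over 23487 regions, which are not independent. This does not settle whether replicates of the same number were paired, since pairing need not leave such a correlation. With 4 libraries no exact test here could reach 0.05.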

Other observations

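Beside the kept sites, 1522 regions of chromosome 13 were called in a single library and 211 in 1 library of each stage. Their peaks enter the peak counts per library but no count of sites.

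Neighbouring sites of chromosome 13 overlapped in 17 of 3721 cases, because their peaks met by less than 50% of the shorter peak. The largest overlaps were 613 bp, between the regions starting at 13723259 and 13724113, 416 bp, between those starting at 37214969 and 37216207, and 335 bp, between those starting at 16920302 and 16921006. In the last pair the left region was called in all 4 libraries and the right one was globular only.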
